A study of Mus musculus with 4 samples.

Results

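Genes of glucose breakdown and of the response to low oxygen were followed in Flk-1+ mesoderm with gain or loss of the transcription factor ER71. The set held 36 listed genes, and 30 of them were measured by a probe set with exactly 1 gene symbol, out of 14860 genes measured in this way. Of the 30 genes, 29 matched by their listed symbol and Ero1l matched as Ero1a, its current name. Gpi1, Gapdh, Pgk1, Eno1 and Ldha had no probe set with their symbol in the platform annotation used, and Pgam1 was named only together with Mdh1, so these 6 genes have no value here. Most of the unmeasured genes encode enzymes of lower glycolysis, which is therefore described only by Eno2 and Pkm.

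RNA came from Flk-1+ cells sorted after 3 days of mouse embryonic stem (ES) cell differentiation, with 1 array for each of 4 groups. Flk-1, encoded by Kdr, is a VEGF receptor that marks mesoderm with vessel and blood potential, and ER71 is the ETS factor encoded by Etv2. The first group was the inducible ER71 line (iER71, genotype labelled wild-type) with 1 mg/ml doxycycline added between day 2 and day 3. The second was iER71 without doxycycline. The third was Er71-/- ES cells, called Er71-deficient here, and the fourth was wild-type ES cells. All cells had been kept on embryonic fibroblast feeders before differentiation, and all RNA was amplified from small inputs. The labels name neither the promoter that drives ER71 nor the number of clones behind each line, and they give no oxygen level for the cultures. The titles of both iER71 arrays contradict their other labels: the doxycycline array is titled control and the untreated array is titled ER71 overexpressed. Groups follow the doxycycline label and the source name, and grouping by title would turn the sign of every doxycycline difference below. It would also change which iER71 array serves as the untreated one in the comparisons with wild-type and Er71-deficient cells.

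In cells with enough oxygen, prolyl hydroxylases of the Egln family mark the alpha subunits of hypoxia-inducible factor (HIF; genes Hif1a and Epas1) for destruction through the VHL ubiquitin ligase. When oxygen is low, the alpha subunits persist, pair with ARNT and bind the letters ACGTG or GCGTG in many promoters and enhancers. Known targets include glucose transporters, most glycolytic enzymes, the kinase PDK1 that inhibits pyruvate dehydrogenase, the mitophagy receptor BNIP3 and the hydroxylase EGLN3 itself. Pluripotent and early embryonic cells are known for high rates of glycolysis.

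The promoters of 5 genes are shown because their genes were the members that lay at least 2-fold apart in a pair of groups described below. Each runs from 250 bases before to 50 bases after a RefSeq start site on GRCm38.p6, on the strand of the gene. They lie at chr4:119108495-119108794 (plus strand) for Slc2a1, chr12:54203825-54204124 (minus) for Egln3, chr7:138909457-138909756 (minus) for Bnip3, chr10:59323046-59323345 (plus) for P4ha1 and chr2:71872974-71873273 (plus) for Pdk1. Capitals mark ACGTG or GCGTG on either strand, which read CACGT or CACGC on the strand opposite to the match. A CACGTG holds ACGTG on both strands and counts as 2 matches.
Slc2a1: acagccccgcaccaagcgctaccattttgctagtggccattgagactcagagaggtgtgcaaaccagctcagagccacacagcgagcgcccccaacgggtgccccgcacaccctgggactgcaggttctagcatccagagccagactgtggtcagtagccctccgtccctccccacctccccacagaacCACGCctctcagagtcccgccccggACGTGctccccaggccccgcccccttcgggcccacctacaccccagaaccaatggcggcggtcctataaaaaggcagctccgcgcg
Egln3: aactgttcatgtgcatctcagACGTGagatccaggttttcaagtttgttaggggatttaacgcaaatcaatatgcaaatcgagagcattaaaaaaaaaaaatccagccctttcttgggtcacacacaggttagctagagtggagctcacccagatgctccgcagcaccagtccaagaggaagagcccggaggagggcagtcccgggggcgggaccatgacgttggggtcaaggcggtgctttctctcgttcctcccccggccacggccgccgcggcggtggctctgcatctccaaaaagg
Bnip3: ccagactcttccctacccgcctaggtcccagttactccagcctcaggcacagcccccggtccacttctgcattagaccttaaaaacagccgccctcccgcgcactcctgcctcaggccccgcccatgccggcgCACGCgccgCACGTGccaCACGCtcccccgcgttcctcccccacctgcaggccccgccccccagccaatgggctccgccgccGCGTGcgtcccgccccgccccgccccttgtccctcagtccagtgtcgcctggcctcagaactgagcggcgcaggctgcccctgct
P4ha1: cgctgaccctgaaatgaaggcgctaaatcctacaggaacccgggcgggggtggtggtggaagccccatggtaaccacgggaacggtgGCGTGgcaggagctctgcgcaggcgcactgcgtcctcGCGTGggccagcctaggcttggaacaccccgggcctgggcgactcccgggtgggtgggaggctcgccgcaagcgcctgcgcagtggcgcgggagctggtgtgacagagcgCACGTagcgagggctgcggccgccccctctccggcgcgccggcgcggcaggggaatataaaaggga
Pdk1: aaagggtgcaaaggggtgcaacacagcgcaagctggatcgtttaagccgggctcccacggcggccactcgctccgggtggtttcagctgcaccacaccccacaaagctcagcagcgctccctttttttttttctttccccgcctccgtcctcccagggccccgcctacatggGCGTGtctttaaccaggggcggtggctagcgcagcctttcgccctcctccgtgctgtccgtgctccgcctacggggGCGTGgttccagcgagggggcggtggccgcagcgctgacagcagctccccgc

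The window held 2 matches for Slc2a1, 1 for Egln3, 5 for Bnip3, 3 for P4ha1 and 2 for Pdk1, while a second listed Pdk1 start held none. At least 1 match was present in 27 of 35 promoters (77.1%) of 26 members found in the RefSeq table, against 43.8% of 32851 promoters of the same length. Members outside the 2-fold group also held several matches, such as Pfkp and Pdk3 with 4 each. A match is a run of letters and not evidence of binding. The shares were not adjusted for the CpG content of the promoters. Many members were listed as known HIF targets, so a higher share of these letters among them is no independent result. Some genes, such as Pfkm and Aldoa, enter with several start sites, so the promoters are not separate genes.

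Across the arrays, levels are given as log2 of the deposited intensity, and a difference of 1 on this scale is 2-fold. Each group rests on 1 array, so differences have a size and no error or p-value. The median of all values, log2 6.16, served as the detection level, and 8843 of the 14860 genes reached it on at least 1 array. Of the 30 members, 26 reached it, and Eno2, Pkm, Ddit4 and Car9 did not. Median intensities ran from 71.3 to 72.3 over the arrays. Exactly equal values on at least 2 arrays occurred in 39.6% of probe sets and in 7 of the 30 members. Etv2 stood at log2 10.50 with doxycycline and 10.05 without it, and at 8.89 in Er71-deficient and 9.39 in wild-type cells. Kdr stood at 10.19 and 9.96 in the iER71 pair and at 9.67 and 9.89 in the other pair, in the same order. The arrays measure pooled RNA, so fewer cells of a type and less RNA per cell cannot be told apart.

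**Figure D1:**
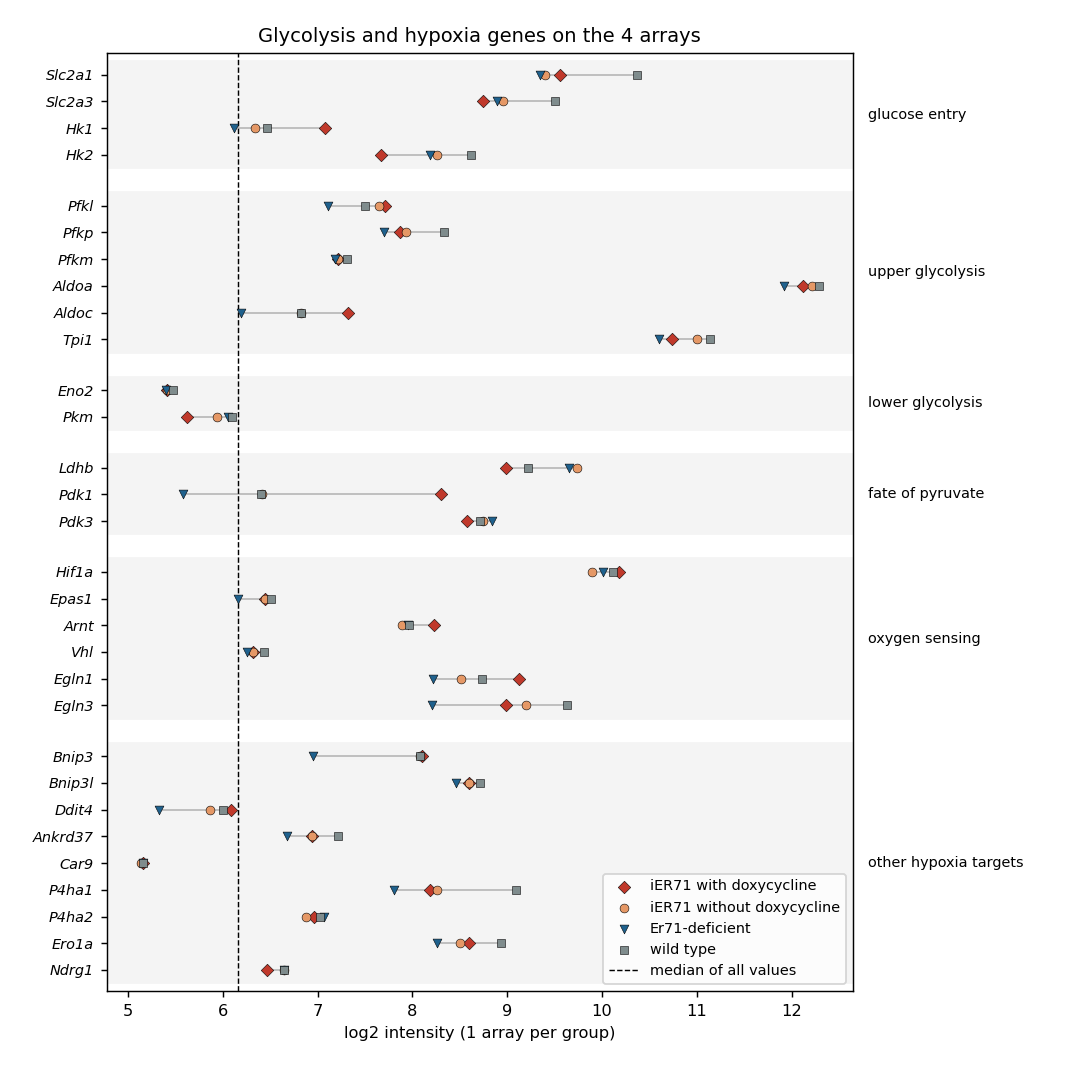
Log2 intensity of the 30 measured genes on the 4 arrays, grouped by role, with the dashed line at the median of all values (log2 6.16). Each symbol is 1 array. The Er71-deficient array lay alone at the low end for 20 of the 30 genes, and the wild-type array alone at the high end for 16.

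Loss of ER71 was compared with wild type first, since most of the set differed in that pair. In Er71-deficient cells 25 of the 30 genes were lower than in wild-type cells by some amount, 3 were higher and 2 were equal. Over the detected genes 52.9% were lower and 30.6% higher, and over all measured genes 47.1% were lower. The members' median was -0.38 for deficient minus wild type, and that of the detected genes -0.01. At least 2-fold lower in deficient cells were 4 members, Egln3, P4ha1, Bnip3 and Slc2a1, and none was 2-fold higher. The 4 genes are 13.3% of the members, beside 1.58% of detected genes and 1.32% of all measured genes that were 2-fold lower; 0.43% and 0.525% were 2-fold higher. Slc2a1 was just under 2-fold with quantile normalization (-0.97) and cyclic loess (-0.99), and with an offset of 50 Slc2a1 (-0.97) and Bnip3 (-0.88) were under it, which left 2 genes. At 1.5-fold the count was 10 of 30 lower and none higher, beside 4.46% and 1.54% of detected genes. Over all measured genes these shares were 3.96% and 1.91%. Ddit4, which is among the 10, did not reach the detection level on any array.

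Glucose enters cells through transporters such as SLC2A1 and SLC2A3 (GLUT1 and GLUT3) and is trapped by hexokinases. Slc2a1 stood at log2 9.35 on the Er71-deficient array and 10.37 on the wild-type one, a 2.03-fold difference. The iER71 arrays, at 9.56 with and 9.40 without doxycycline, lay close to the deficient one, so the wild-type array was the one apart. Slc2a3 stood at 8.89 in deficient cells and 9.51 in wild type, with 8.75 with and 8.95 without doxycycline. Wild type was again the array apart for this second transporter. Hk2, a hexokinase bound to mitochondria, was at 8.19 in deficient and 8.62 in wild-type cells. Hk1, the more widely expressed hexokinase, was at 6.12 and 6.47 in the same order, near the detection level.

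The upper part of glycolysis turns glucose phosphate into triose phosphates. All 6 measured members of this group were lower in deficient cells than in wild type, beside 52.9% of detected genes. Their median was -0.47 with a range of -0.63 to -0.12, and none reached 2-fold. Aldoc, a brain-enriched aldolase, stood at 6.20 in deficient cells and 6.82 in wild type. Pfkp, the platelet-type phosphofructokinase, stood at 7.71 and 8.34. The untreated iER71 array held Aldoc at the wild-type level (6.82) and Pfkp at 7.93, between both.
Tpi1, which interconverts the triose phosphates, was at 10.60 in deficient and 11.14 in wild-type cells. Aldoa, the main aldolase of muscle and embryo, was at 11.92 and 12.29. Pfkl and Pfkm, the liver-type and muscle-type phosphofructokinases, differed by -0.39 and -0.12. Aldoa has close retrogene copies in the mouse genome, and whether its probes distinguish them is not given in the sources used here.

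Below the trioses, Eno2, the neuronal enolase, lay below the detection level on every array, between 5.40 and 5.47. Pkm, pyruvate kinase, did too, between 5.62 and 6.10. Lower glycolysis is thus hardly covered by these arrays' named probe sets. Of the genes that set the fate of pyruvate, Pdk1 stood at 5.58 in deficient cells, under the detection level, and at 6.40 in wild type. Pdk3, another kinase of pyruvate dehydrogenase, was at 8.84 and 8.71. Ldhb, the lactate dehydrogenase subunit of heart, was at 9.65 in deficient and 9.22 in wild-type cells. Pdk3, Ldhb and P4ha2 were the 3 members higher in deficient cells. A dimmer Ldhb probe set went the other way, at 5.08 in deficient and 5.80 in wild-type cells, below the detection level on all arrays.

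The oxygen-sensing genes differed unevenly. Egln3, a prolyl hydroxylase that HIF itself induces, stood at 8.21 on the Er71-deficient array and 9.63 on the wild-type one, a 2.69-fold difference and the widest of the set in this pair. The iER71 arrays lay between, at 8.98 with and 9.20 without doxycycline. Egln1, the main oxygen sensor among the hydroxylases, was at 8.21 in deficient and 8.73 in wild-type cells.
The factor itself differed less. Hif1a stood at 10.01 in deficient cells and 10.12 in wild type. Its partner Arnt stood at 7.95 and 7.96, and Vhl, the recognition subunit of the ligase, at 6.25 and 6.43. Epas1, the other alpha subunit gene, stood at 6.16 and 6.51, close to the detection level. HIF alpha is controlled largely through protein stability, which RNA arrays do not measure.

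Of the other hypoxia targets, P4ha1, a collagen prolyl hydroxylase subunit, stood at 7.80 in deficient cells and 9.09 in wild type, a 2.44-fold difference. With doxycycline it was at 8.18 and without it at 8.26, so the wild-type array stood apart here as for Slc2a1. Bnip3 stood at 6.95 in deficient cells and 8.08 in wild type, a 2.18-fold difference. Bnip3 was at 8.10 with and 8.08 without doxycycline, and here the deficient array was the one apart from the other 3.
Ero1a, an oxidase of the endoplasmic reticulum, was at 8.26 in deficient and 8.93 in wild-type cells. Ankrd37, a small ankyrin-repeat gene induced by HIF, was at 6.68 and 7.21. Ddit4, an inhibitor of mTOR signalling, was at 5.33 and 6.01, below the detection level on all arrays. Car9, the carbonic anhydrase often used as a hypoxia marker, also lay below that level everywhere, between 5.13 and 5.16. Ndrg1, a stress-induced gene, had the same value, 6.64, in deficient and wild-type cells.

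**Figure D2:**
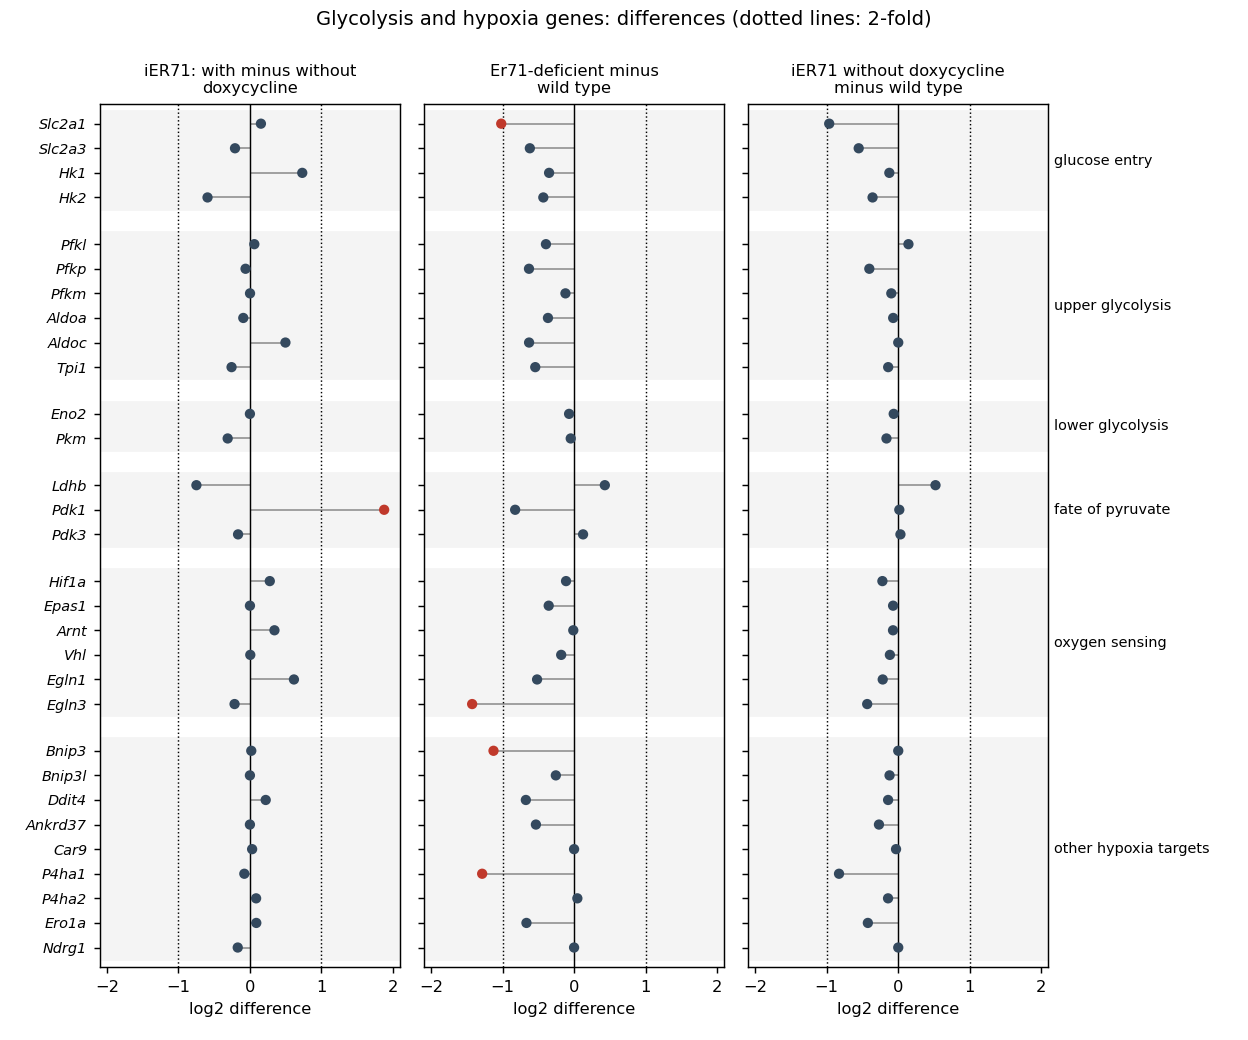
Log2 differences of the 30 genes, with doxycycline minus without it (left), Er71-deficient minus wild type (middle) and untreated iER71 minus wild type (right), with dotted lines at 2-fold and red points at or beyond them. Pdk1 lies at 1.88 in the left panel; Egln3, P4ha1, Bnip3 and Slc2a1 lie between -1.43 and -1.02 in the middle panel.

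Close relatives in the set differed by unlike amounts between deficient and wild-type cells. P4ha2, the other collagen hydroxylase subunit, differed by 0.05 where P4ha1 differed by -1.29. Bnip3l, the relative of Bnip3, differed by -0.26, and Egln1 by -0.52 beside -1.43 for Egln3. Pdk3 differed by 0.13 and Pdk1 by -0.82. Each gene has its own probe set with its own response, so these differences are set side by side without a test.

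Which array stood apart was counted over the 4 arrays. The Er71-deficient array was alone the lowest for 20 of 30 members, beside 29.5% of detected genes, and the wild-type array alone the highest for 16 of 30, beside 26.0%. Wild type was alone the lowest for none, beside 12.5%. Untreated iER71 cells, which the labels describe as given no doxycycline but title as ER71 overexpressed, were also below wild type. Their Etv2 level was 1.57-fold above wild type. In them 23 of 30 members were lower, beside 47.0% of detected genes, with a median of -0.12 (untreated minus wild type) against 0 over the detected genes. No member was 2-fold apart there, where 0.554% of detected genes were 2-fold lower and 0.441% higher. Slc2a1 (-0.97) and P4ha1 (-0.83) had the widest of these differences. Grouped by title, the array labelled as given doxycycline would take this place. On it 20 of 30 members were lower than in wild type and 9 higher, beside 46.5% and 39.9% of detected genes. Pdk1 was 3.71-fold higher there, where 2.63% of detected genes were 2-fold higher.
Set against the untreated iER71 array instead of wild type, Er71-deficient cells were lower for 23 of 30 members, beside 43.8% of detected genes, with a median of -0.18 against 0. This comparison was added after the data were seen, and it crosses lines. Bnip3 (-1.13) passed 2-fold, beside 1.19% of detected genes, and Egln3 followed at -0.99, Pdk1 at -0.84 and Aldoc at -0.63. The Slc2a1 difference was only -0.05 and that of P4ha1 -0.46. These comparisons share arrays with the one against wild type.

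**Figure D3:**
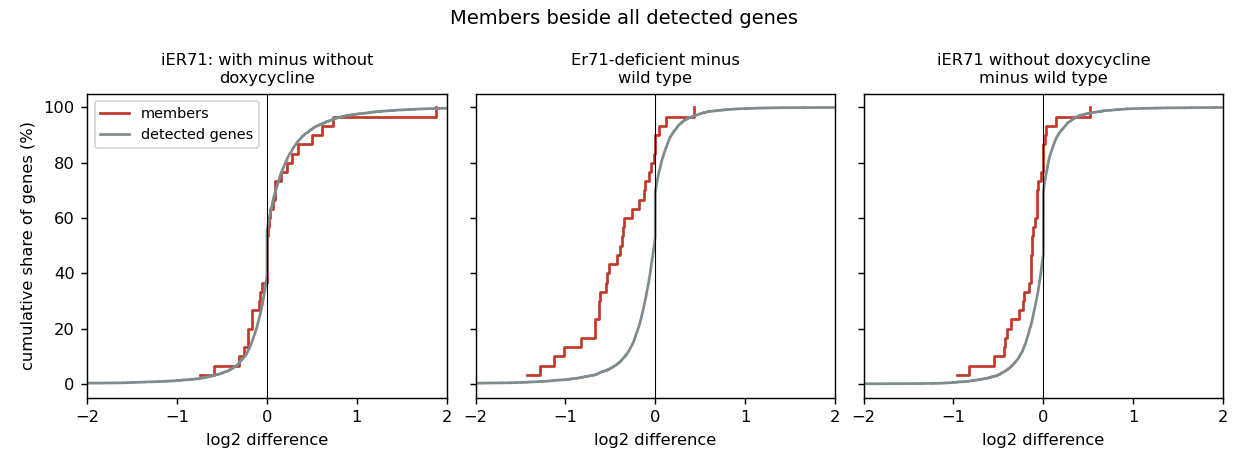
Cumulative share (%) of the 30 members (red) and of 8843 detected genes (grey) against the log2 difference, for doxycycline minus untreated iER71 (left), Er71-deficient minus wild type (middle) and untreated iER71 minus wild type (right). In the middle panel the members lie left of the detected genes, with medians of -0.38 and -0.01; in the left panel both medians are near 0. The axis is limited to 4-fold either way.

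Gain of ER71 was addressed by the iER71 pair, where the set as a whole lay where the detected genes did. Etv2 was 1.37-fold higher with doxycycline. No array of another line was given doxycycline, so effects of ER71 and of the drug itself cannot be told apart in this pair. With doxycycline (the array titled control) 16 of 30 members were higher than without it, 11 were lower and 3 were equal; 44.6% of detected genes were higher and 39.1% lower. With median centring, quantile normalization and cyclic loess, 18, 19 and 16 of the 30 were lower, as were 59.6%, 64.4% and 56.7% of detected genes. The median difference (with minus without doxycycline) was 0.00 for the members and for the detected genes. Pdk1 was the 1 member at least 2-fold higher, beside 2.41% of detected genes and 1.73% of all measured genes. None was 2-fold lower, beside 1.23% and 0.929%. At 1.5-fold, 3 were higher and 2 lower, beside 6.31% and 3.17%.

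Pdk1 stood at 8.30 with doxycycline and 6.42 without it, a 3.68-fold difference. In Er71-deficient cells it stood at 5.58 and in wild type at 6.40, so the gene was brightest with doxycycline and dimmest without Er71. Its range over the 4 arrays, 2.72, was the widest among the members; next came Egln3 with 1.43. The untreated and wild-type arrays lay just above the detection level, so the size of the fold is uncertain.

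The hexokinases parted in this pair. Hk1 stood at 7.07 with doxycycline and 6.34 without it, 1.66-fold higher. Hk2 stood at 7.67 with and 8.26 without doxycycline, 1.51-fold lower. Ldhb was lower as well, at 8.99 with and 9.74 without doxycycline (1.68-fold), and its dimmer probe set differed in the same direction, by -0.52. Egln1 stood at 9.13 with doxycycline and 8.51 without it, 1.53-fold higher, whereas Egln3 stood at 8.98 and 9.20. Aldoc stood at 7.32 with doxycycline and 6.82 without it.
Among the regulators, Arnt stood at 8.23 with and 7.89 without doxycycline. Hif1a stood at 10.17 and 9.90. Epas1 was at 6.44 and Vhl at 6.32 on both arrays. The transporter Slc2a1, 2-fold apart in the other pair, stood at 9.56 with and 9.40 without doxycycline, and P4ha1 at 8.18 and 8.26. The remaining members of the hypoxia target group differed by -0.17 to 0.22.

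Further genes of these pathways, from lists written out for this comparison, gave a mixed picture. Of 40 other hypoxia response genes 36 were measured. In Er71-deficient cells 27 of the 36 were lower than in wild type and 5 were higher, beside 52.9% and 30.6% of detected genes. The median was -0.12, against -0.01 over the detected genes. One passed 2-fold: Adm, the peptide adrenomedullin, at 3.73 in deficient and 4.77 in wild-type cells, far below the detection level on all arrays. Of detected genes 1.58% were 2-fold lower in this pair, and of all measured genes 1.32%. Close to 2-fold was Bhlhe40, a transcriptional repressor, at 6.95 in deficient and 7.94 in wild-type cells. It was lower still in iER71 cells, at 6.27 with and 6.18 without doxycycline.
Vegfa, the ligand of Flk-1, stood at 7.96 in deficient and 8.64 in wild-type cells, and at 8.13 on both iER71 arrays. Kdm3a, a histone demethylase, stood at 7.98 in deficient and 8.73 in wild-type cells, and at 9.01 with and 8.36 without doxycycline. Nfil3 went the other way, at 8.05 in deficient and 7.32 in wild-type cells, the widest of the 5 higher genes. Vegfa, Kdm3a and Nfil3 were named after their values were seen. With doxycycline 12 of the 36 were higher and 20 lower, beside 44.6% and 39.1% of detected genes, with a median of -0.02. Past 2-fold in this pair were Tpd52 (2.63-fold higher), the heme oxygenase gene Hmox1 (2.06-fold higher) and the lipoprotein receptor gene Vldlr (3.67-fold lower). Of detected genes 2.41% were 2-fold higher and 1.23% lower with doxycycline. Gbe1, the glycogen branching enzyme, was 2.27-fold lower in untreated iER71 cells than in wild type, and Bhlhe40 was 3.40-fold lower. There 0.554% of detected genes were 2-fold lower.

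Of 27 other genes of glucose transport and glycolysis 21 were measured, but 11 of these lay below the detection level on all arrays. Pfkfb3 and Pfkfb4 stand in this list and also in that of the other hypoxia response genes. The median difference of the 21 genes was 0.00 in both pairs. In Er71-deficient cells 10 were lower than in wild type and 7 higher, beside 47.1% and 29.3% of all measured genes. None passed 2-fold in that pair. Fbp1, the gluconeogenic fructose bisphosphatase, was 2.23-fold higher with doxycycline, at 6.50 with and 5.35 without it. The lower value is below the detection level, so the fold is uncertain. Of all measured genes 1.73% were 2-fold higher with doxycycline.

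**Figure D4:**
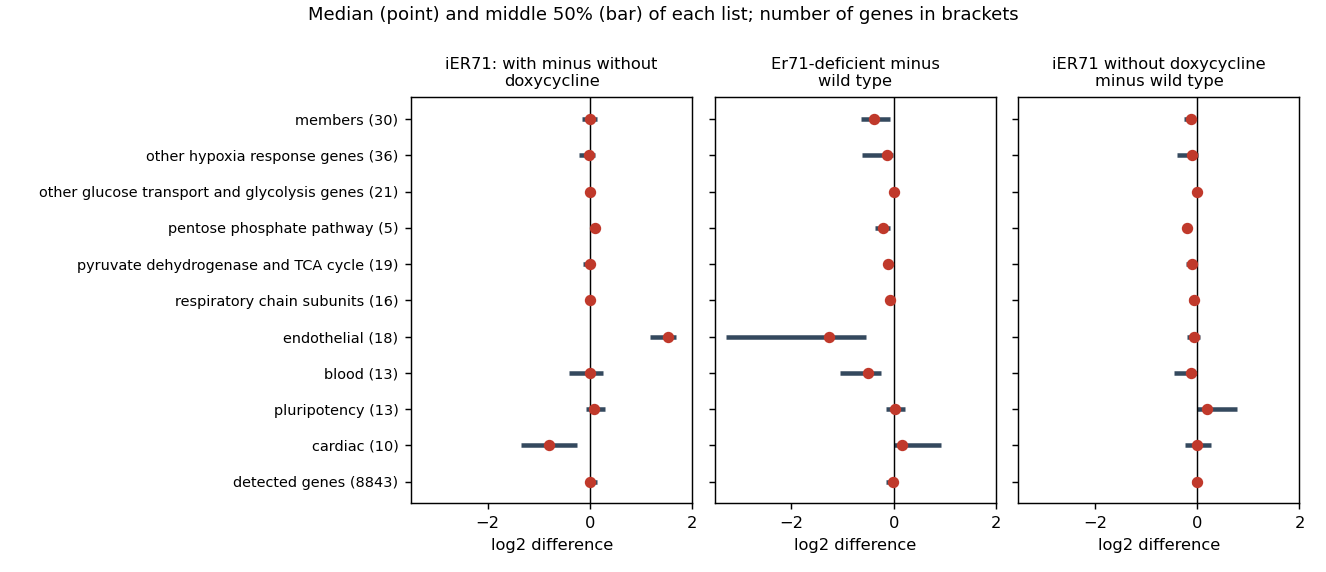
Median log2 difference (point) and middle 50% (bar) of the set, of other pathway lists, of cell type marker lists and of the detected genes, with the number of measured genes in brackets. Doxycycline minus untreated iER71 is on the left, Er71-deficient minus wild type in the middle and untreated iER71 minus wild type on the right. In the middle panel the set has a median of -0.38 and the endothelial markers one of -1.26.

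Markers of cell types that the sorted populations could hold moved between the same arrays. The 18 endothelial markers summed to an intensity of 1029.8 on the Er71-deficient array and 4772 on the wild-type one, and 10 of them were at least 2-fold lower in deficient cells, Fli1, Cdh5 and Tek by the most. They summed to 13133 with doxycycline and 4129.7 without it, where 15 passed 2-fold upward. The 13 blood markers summed to 1053 in deficient and 2115 in wild-type cells, and to 1903 with and 1619 without doxycycline. Klf1, Ptprc and Spi1 lay below the detection level on all arrays. Hbb-y, Kit, Lmo2 and Hba-x were 2-fold lower in deficient cells than in wild type. Hbb-y stood at 8.71 in wild type, 5.29 in deficient cells, and 4.94 with and 5.63 without doxycycline, so wild type was the array apart. Untreated iER71 minus wild type was -0.71 for Hba-x, -0.05 for Kit and 0.27 for Lmo2.
The 13 pluripotency markers summed to 8700.6 in deficient and 5559 in wild-type cells, and to 3023 with and 7029.7 without doxycycline; Dppa5a and Esrrb lay below the detection level. Tdgf1 carried most of these sums, and the other 12 markers summed to 1778 in deficient and 1433 in wild-type cells, and to 1947 with and 1725 without doxycycline. Of the 13, 8 were higher with doxycycline and 5 lower; Dppa4 and Utf1 were 2-fold higher, and Tdgf1 and Tbx3 2-fold lower. Nanog was the 1 marker 2-fold higher in deficient cells than in wild type. Of the 10 cardiac markers 7 were higher and 3 lower in deficient cells than in wild type, with a median of 0.16. Myl7, Mesp1 and Isl1 were 2-fold higher, and the list summed to 2250.3 in deficient and 1600.4 in wild-type cells. Isl1 was also 2.09-fold higher in untreated iER71 cells than in wild type. With doxycycline 2 of the 10 were higher and 8 lower, Mef2c 2-fold higher and Myl7, Gata4 and Mesp1 2-fold lower. The sums were 925.6 with and 1429.8 without doxycycline, and Tbx5 lay below the detection level. Of 7 fibroblast feeder markers, Col3a1, Dcn, Lum and Postn lay below that level on all arrays, and the list summed to 471 in deficient and 525 in wild-type cells. The 9 endoderm markers summed to 978 in deficient and 981 in wild-type cells (546 and 690.2 without Cxcr4), with Afp, Hnf4a and Ttr below the level. Single markers differed more: Hhex stood at 5.52 in deficient and 7.51 in wild-type cells. The sums were 864.8 with and 1020.8 without doxycycline (802.5 and 760.7 without Cxcr4). Cxcr4 and Cer1 were 2-fold lower with doxycycline and Sox17, also an endothelial marker here, 2-fold higher. The part of these populations in the lower levels of glycolysis and hypoxia genes was not tested.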

How the data were processed

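RNA of Flk-1+ cells was measured on 4 Affymetrix arrays, 1 per group. The deposited values are linear intensity values per probe set (23332), summarised and normalized by the authors; Affymetrix Expression Console, RMA and genome build mm8 are named, per the submitters' processing notes, without version or order. Log2 was taken here. Genes were named from the platform annotation, through probe sets with exactly 1 symbol (14996; 1019 had several symbols and 7317 none), keeping the brightest probe set per gene. Listed symbols not current in RefSeq were looked up as synonyms. Detection required 1 or more arrays at or above the overall median (intensity 71.6).

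Differences were called by size at 2-fold, with no test. The members and lists were chosen with earlier results of these data known. All members are named; those 2-fold apart and the regulators are given on all arrays. Of other pathway lists, genes past 2-fold are named; cell type markers are given by counts and sums with some of the genes past 2-fold, so not every gene that the naming rule takes is named. Alternatives were median centring, quantile and cyclic loess normalization (limma 3.58.1), an offset of 50, the mean of a gene's probe sets, other detection filters, a 1.5-fold call and grouping by title. The step that takes the differences was run on simulated data with the same 2-fold threshold. Promoters are from RefSeq (GRCm38.p6); no other coordinates are given, as the build differs. Python 3.11.15 was used. The number of arrays limits the precision.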

Additional observations from a re-analysis of the deposited data

How the results depend on the processing

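The lower level of the set in Er71-deficient cells kept its direction under each alternative run. Its median (deficient minus wild type) ran from -0.38 to -0.32 under the other scalings, the offset and the mean of probe sets, was -0.54 over the members with an array at log2 8 or above, and -0.18 against untreated iER71 cells, a reference chosen after seeing the data. Of the 4 members 2-fold lower, Slc2a1 was under 2-fold with quantile normalization (-0.97), cyclic loess (-0.99) or the offset of 50 (-0.97), and Bnip3 was with the offset (-0.88). The count was 2 with the offset, 10 at 1.5-fold and 1 against untreated iER71. With doxycycline, 3 members were higher and 2 lower at 1.5-fold. Grouping by title gave a median of -0.0011 for the members, against 0.0011 by the doxycycline label. The counts of members higher and lower with doxycycline, 16 and 11, became 12 and 18 with median centring, 11 and 19 with quantile normalization and 14 and 16 with cyclic loess. Untreated iER71 against wild type gave 2 members lower at 1.5-fold.

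Counts of detected genes moved more. With doxycycline, 108 were 2-fold higher and 61 lower with the offset, 118 were higher with the stricter filter, and 558 and 280 passed 1.5-fold. In deficient cells, 13 were higher and 62 lower with the offset, 19 and 88 with the stricter filter, and 136 and 394 at 1.5-fold; without a filter 78 were higher. For untreated iER71 minus wild type, 17 were higher and 19 lower with the offset, 17 were higher with the stricter filter, 97 and 94 passed without a filter, and 148 and 218 at 1.5-fold. Fewer or more genes enter under other filters, and the offset shrinks differences of dim genes. No paired analysis was possible because each group has 1 array.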

Other observations

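Between Er71-deficient and wild-type cells, genes of the mitochondrial side of glucose use differed less than the glycolysis and hypoxia set, whose median was -0.38. Of 19 measured genes of pyruvate dehydrogenase and the TCA cycle, which oxidise pyruvate, 14 were lower and 3 higher in Er71-deficient cells than in wild type. The median was only -0.10 and none passed 2-fold. Over the detected genes 52.9% were lower and 30.6% higher, with a median of -0.01. For 16 respiratory chain subunits the median was -0.06, with 12 lower and 2 higher, and again none at 2-fold. Untreated iER71 cells lay below wild type by similar amounts, with medians of -0.10 and -0.05, where the set had a median of -0.12. With doxycycline the medians were 0.00 for both lists, as for the set. The 5 measured genes of the pentose phosphate pathway, which makes NADPH and ribose from glucose, had a median of -0.21 in deficient cells against wild type and 0.10 with doxycycline, with none at 2-fold. These differences between lists were not tested.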
